A study of Mus musculus with 12 samples.

Results

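The IL-6 family cytokines and their STAT3 pathway were examined in the periocular skin of filaggrin-deficient mice with and without MyD88. The set was chosen by gene name and comprised 10 of the 21247 genes in the count table: the ligands *Il6*, *Il11*, *Lif* and *Osm*, the receptors *Il6ra*, *Il6st*, *Lifr* and *Osmr*, and the signalling genes *Stat3* and *Socs3*. Of these, all 10 passed the minimum of 10 counts summed over the libraries. Bulk RNA-seq libraries came from 4 samples labelled ft/ft and 4 samples with the label ft/ftMyD88-/-, each from eye-skin of 6-week-old BALB/c mice described as female, and 4 WT samples were not analysed here. Both groups are deficient in filaggrin (*Flg*) a protein of the outer epidermis, through a spontaneous loss-of-function mutation, without the ma mutation of the original flaky tail strain. ft/ftMyD88-/- mice also lack MyD88, the adaptor of toll-like and IL-1 family receptors, in all tissues, and the study describes spontaneous inflammation around their eyes at this age.

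IL-6 family cytokines signal through receptor complexes that contain gp130, the product of *Il6st*. IL-6 binds IL-6Rα (*Il6ra*), LIF binds LIFR (*Lifr*), and in mice oncostatin M binds mainly OSMR (*Osmr*), each together with gp130. The receptors activate JAK kinases, which phosphorylate STAT3, and STAT3 induces its own inhibitor *Socs3*. In skin, oncostatin M acts on keratinocytes, fibroblasts and endothelial cells that carry OSMR, and STAT3 is known for its part in wound healing and in psoriasis-like inflammation.

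The libraries held 15802957 to 29255129 counts, and totals did not differ detectably by group (exact permutation test, two-sided, p = 0.457). *Myd88* stood at 32.1, 36.5, 28.7 and 25.4 CPM in the libraries labelled ft/ft and at 38.8, 48.8, 32.2 and 44.9 CPM in those labelled ft/ftMyD88-/-. The groups overlapped, and *Myd88* was called higher in ft/ftMyD88-/- (log2 fold change 0.42, edgeR adjusted p = 0.0484). Transcript counts thus did not mark the deficiency. Which exons the *Myd88* allele lacks was not given in the sources used here, and counts over the whole gene cannot check it. *Flg*, mutated in both groups, was at 48.3 to 199 CPM in ft/ft and 191 to 273 CPM in ft/ftMyD88-/-. It did not pass (log2 fold change 1.22, edgeR adjusted p = 0.120). *Xist* had at most 1 count in each ft/ft library and 34.6 to 66.8 CPM in the ft/ftMyD88-/- libraries, and the Y-linked *Ddx3y* stood at 54.2 to 73.2 CPM against at most 0.482 CPM. The groups thus differed in sex-linked transcripts, against the description of all mice as female, and the effects of sex and of genotype cannot be told apart here. Group names refer to the labels throughout. In bulk tissue, fewer cells of a type and less RNA per cell cannot be told apart either.

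Promoter sequences are shown for the members in which a binding motif of a factor downstream of these receptors, or of inflammatory signalling in general, lay before the start site. RefSeq promoters of GRCm38.p6, from 250 bases before to 50 bases after the start site, matched 9 of the 10 members, with 11 start sites in all. Both strands were searched for the STAT motif TTCNNNGAA and the AP-1 motif TGANTCA, and no window of a member held both. *Socs3*, the direct STAT3 target of the set, carried the STAT motif on chr11:117969462-117969570 (minus strand), 154 bases before the start site of its promoter entry. That start site and the motif lie inside the span listed for the gene, which begins at 117970336 on this strand. The 3 ligands with a promoter entry each carried the AP-1 motif, *Il6* on chr5:30012864-30012921 (plus strand), *Il11* on chr7:4778183-4778289 (minus strand, the inner of its 2 start sites) and *Lif* on chr11:4257318-4257396 (plus strand). Capitals mark the motif in each stretch, written 5′ to 3′ on the strand of the gene.
Socs3: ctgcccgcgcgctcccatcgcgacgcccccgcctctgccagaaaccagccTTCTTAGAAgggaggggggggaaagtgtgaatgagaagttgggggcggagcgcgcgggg
Il6: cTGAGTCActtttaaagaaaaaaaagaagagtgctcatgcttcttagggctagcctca
Il11: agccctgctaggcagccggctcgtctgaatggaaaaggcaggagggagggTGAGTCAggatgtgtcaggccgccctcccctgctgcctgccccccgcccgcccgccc
Lif: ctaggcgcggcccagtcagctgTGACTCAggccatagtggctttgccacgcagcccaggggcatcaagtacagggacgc

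The AP-1 motif lay 249 bases before the start site in *Il6*, 98 in *Il11* and 228 in *Lif*. *Osmr* also held it just after its start site, inside an exon. The STAT motif was present in 1 of the 11 promoters and the AP-1 motif in 4, against 8.3% and 7.81% of 32851 RefSeq promoters of the same length. A match is a run of letters and not a measured binding site.

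Most of the set was more abundant in the libraries labelled ft/ftMyD88-/-. By edgeR's quasi-likelihood test over 20454 genes with Benjamini-Hochberg adjustment at 0.05, 7 of the 10 members were called, against 23.3% of all genes tested. *Il6*, *Il11*, *Lif*, *Osm*, *Osmr* and *Socs3* rose, against 10.9% of all genes. *Il6st* fell, against 12.3% of all genes, and *Il6ra*, *Lifr* and *Stat3* did not pass. The median log2 fold change (ft/ftMyD88-/- minus ft/ft) was 0.51 over the members and 0.01 over all genes tested, with 8 of the 10 members and 51% of all genes above 0. In 4 members, *Il11*, *Lif*, *Osm* and *Socs3*, every ft/ftMyD88-/- library lay above every ft/ft library, as in 12.5% of all genes.

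**Figure D1:**
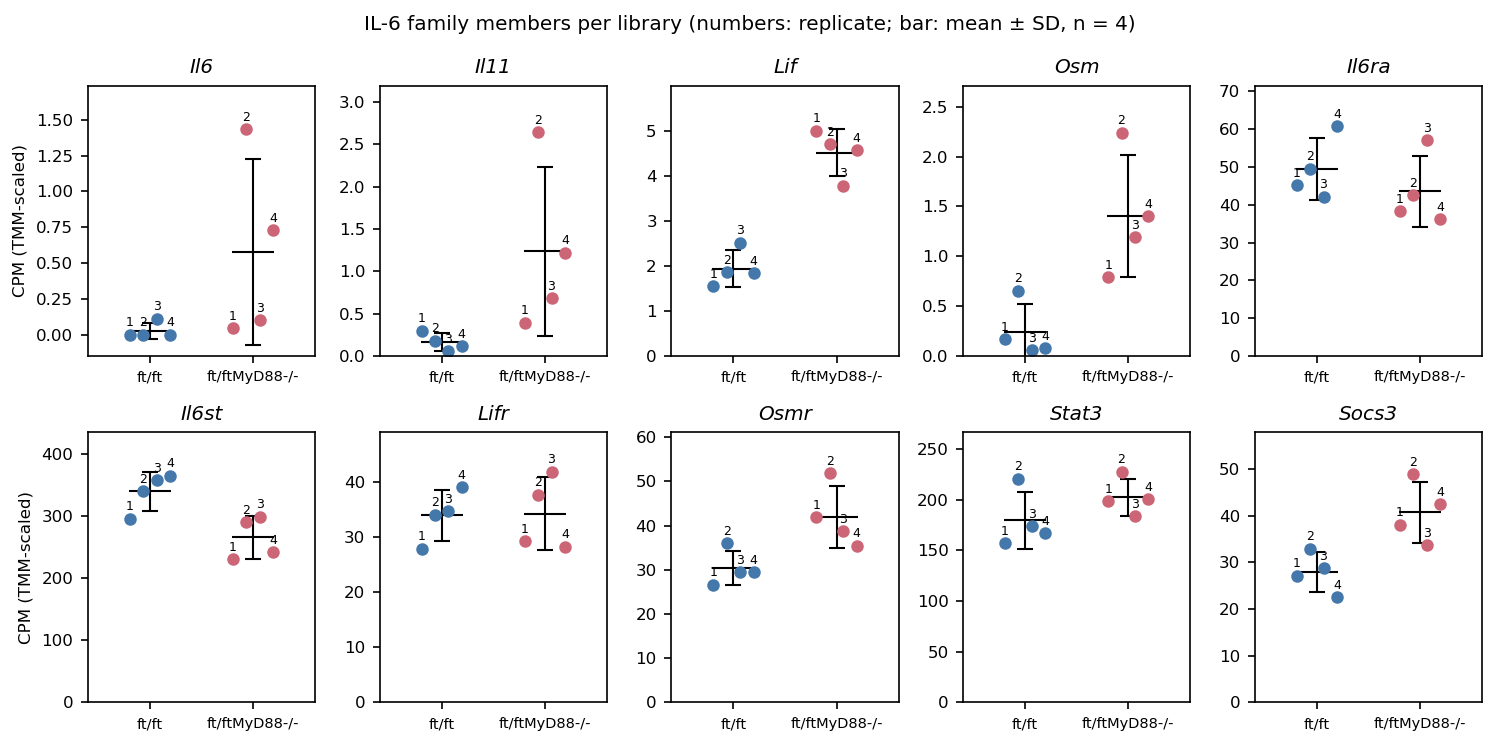
Abundance of the 10 members in each library, in CPM scaled by TMM, on axes that start at 0 except for *Il6*, with replicate numbers beside the points and the mean ± SD of 4 libraries as a bar. The ligands in the upper row differ most, without overlap except for *Il6*, with *Lif* at 1.54 to 2.51 CPM in ft/ft and 3.78 to 5.0 CPM in ft/ftMyD88-/-, while *Il6ra*, *Lifr* and *Stat3* overlap.

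The plot of abundance by library shows both how low 3 of the ligands were and how far the receptor and STAT3 transcripts stood above them. Levels of different genes were compared per kilobase of exon, as RPKM, which assumes reads from along the whole transcript. In ft/ft skin *Il6st* was the highest at 30.6 ± 2.81 RPKM (SD, n = 4), followed by *Stat3* at 18.9 ± 2.97 and *Socs3* at 9.64 ± 1.48. *Il6ra* stood at 5.72 ± 0.943 RPKM, *Lifr* at 3.15 ± 0.425 and *Osmr* at 2.51 ± 0.326. The ligands formed the lower end, with *Lif* at 0.445 ± 0.0938 RPKM, *Osm* at 0.105 ± 0.124, *Il11* at 0.0784 ± 0.0503 and *Il6* at 0.0115 ± 0.0230. Every ligand was thus lower than every receptor subunit in ft/ft skin. Neighbours in this order whose ranges over the libraries overlapped were *Lifr* and *Osmr*, *Osm* and *Il11*, and *Il11* and *Il6*.

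In the libraries labelled ft/ftMyD88-/- the order was the same except that *Osmr*, at 3.47 ± 0.582 RPKM, came before *Lifr* at 3.18 ± 0.612. These ranges overlapped, with *Osmr* above *Lifr* in 3 of 4 libraries, and so did those of *Il6ra* and *Osmr*. *Il6st* there stood at 23.9 ± 3.10 RPKM and overlapped with *Stat3* at 21.3 ± 1.92. *Socs3* reached 14.1 ± 2.26 RPKM and *Il6ra* stood at 5.04 ± 1.09. *Lif* at 1.04 ± 0.120, *Osm* at 0.619 ± 0.270, *Il11* at 0.593 ± 0.481 and *Il6* at 0.238 ± 0.268 overlapped with each other from one to the next, and *Lif* lay below *Lifr* in every library. The spread between libraries of *Il11* and *Il6* in this group was close to their mean.

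Among the ligands, *Lif* (GRCm38.p6 chromosome 11, 4257568 to 4272514) separated the groups with the least spread. LIF is a cytokine of epithelial and stromal cells that signals through LIFR and gp130. It measured 1.54, 1.85, 2.51 and 1.84 CPM in the ft/ft libraries and 5.0, 4.70, 3.78 and 4.57 CPM in the ft/ftMyD88-/- libraries. The lowest ft/ftMyD88-/- library lay above the highest ft/ft library, and with 1 library left out the log2 fold change lay between 1.13 and 1.36. The log2 fold change was 1.23 (SE 0.190, 95% interval 0.81 to 1.64, edgeR adjusted p = 0.00100; exact permutation p = 0.0286, the smallest that 4 against 4 libraries allow).

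*Osm* (chromosome 11, 4236785 to 4241026), the neighbour of *Lif* on the chromosome, encodes oncostatin M, which is made mainly by myeloid and T cells. It had 4, 18, 1 and 2 counts in the ft/ft libraries, or 0.171, 0.655, 0.0558 and 0.0767 CPM. In the ft/ftMyD88-/- libraries it had 18, 61, 35 and 23 counts, or 0.789, 2.24, 1.19 and 1.40 CPM. ft/ft replicate 2 was the highest of its group and came close to the lowest ft/ftMyD88-/- library, but the groups did not overlap. The log2 fold change was 2.44 (SE 0.584, 95% interval 1.16 to 3.72, edgeR adjusted p = 0.0122; exact permutation p = 0.0286). Without ft/ft replicate 2 the log2 fold change was 3.70.

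*Il11* (chromosome 7, 4772373 to 4782907) encodes IL-11, a ligand made by stromal cells that signals through gp130 with its own receptor. It was at 0.300, 0.182, 0.0558 and 0.115 CPM in ft/ft, from 7, 5, 1 and 3 counts. In ft/ftMyD88-/- it was at 0.394, 2.65, 0.680 and 1.22 CPM, from 9, 72, 20 and 20 counts. ft/ftMyD88-/- replicate 2 was far above the others, replicate 1 was just above the highest ft/ft library, and the groups did not overlap. For *Il11* the log2 fold change was 2.85 (SE 0.653, 95% interval 1.42 to 4.29, edgeR adjusted p = 0.00985; exact permutation p = 0.0286) and 2.12 without ft/ftMyD88-/- replicate 2.

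*Il6* (chromosome 5, 30013114 to 30019975) was the scarcest member. It had 0, 0, 2 and 0 counts in the ft/ft libraries and 1, 39, 3 and 12 counts in the ft/ftMyD88-/- libraries, or 0.0438, 1.43, 0.102 and 0.732 CPM. Only ft/ftMyD88-/- replicates 2 and 4 stood above the 3 counts that a count of 0 allows, and replicates 1 and 3 overlapped with ft/ft replicate 3 at 0.112 CPM. The mean of ft/ftMyD88-/- was at least 3.45-fold higher than the highest floor of an ft/ft library, 0.167 CPM, and at least 1.75-fold higher without ft/ftMyD88-/- replicate 2. The edgeR test gave an adjusted p = 0.0415, but 7 of its 14 alternatives did not pass, with adjusted p up to 0.124, and the exact permutation p was 0.0857. The call was lost without ft/ft replicate 1, 2, 3 or 4 and without ft/ftMyD88-/- replicate 2 or 4, where adjusted p was 0.103, 0.107, 0.106, 0.112, 0.0976 and 0.0875 by edgeR.

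Some transcripts listed as markers of leukocytes also differed between the groups. The sums below cannot tell leukocytes from other skin cells with the same transcripts. The summed neutrophil markers were at 63.2 to 362 CPM in ft/ft and at 433 to 1082 CPM in ft/ftMyD88-/-. The 362 CPM was in ft/ft replicate 2, which also had the highest *Osm* of its group. *S100a8* and *S100a9* made up most of the sum there, at 88.4 and 134 CPM, and in every ft/ftMyD88-/- library. Neither passed (edgeR adjusted p = 0.126 and 0.123). Of 6 neutrophil markers tested 1 was called higher, *Csf3r*, the G-CSF receptor, against 10.9% of all genes. The sum listed for alpha beta T cells was at 12.2 to 16.5 CPM against 21.6 to 29.0 CPM with 5 of 6 markers called higher. Those called were *Cd3d*, *Cd3e*, *Cd3g*, *Cd4* and *Cd8a*. The *Cd3* genes also mark gamma delta T cells, of which the study's flow cytometry found more, but not more CD4+ T cells. The macrophage sum was at 536 to 692 CPM against 743 to 1046 CPM with 2 of 7 called higher, *Lyz2* and *C1qa*. Both counts stand against 10.9% of all genes called higher. *Lyz2* alone was at 243 to 273 CPM in ft/ft and at 401 to 647 CPM in ft/ftMyD88-/-, whereas *Adgre1*, *Cd68* and *Csf1r* had log2 fold changes of -0.03, -0.11 and -0.21 and did not pass. In ft/ftMyD88-/- the 3 sums were highest in replicate 4, while *Il6*, *Il11* and *Osm* were highest in replicate 2. Single neutrophil and macrophage markers differed in this. *S100a8*, *S100a9* and *Lyz2* were highest in replicate 4, *Ltf* in replicate 1, and *Adgre1* and *Csf1r* in replicate 3. *Csf3r*, *Cxcr2*, *Mmp8*, *C1qa*, *C1qb*, *Cd68* and *Mrc1* were highest in replicate 2, as the 3 ligands were. None of these markers was at 0 in every library of a group, and the neutrophil granule gene *Ngp*, with at most 2 counts in any library, was too low to test. The part of these cells in the ligand levels was not tested.

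Receptor subunits did not move together. *Osmr* (chromosome 15, 6813568 to 6874968) rose, with 26.7, 36.0, 29.5 and 29.4 CPM in ft/ft and 41.8, 51.8, 38.8 and 35.5 CPM in ft/ftMyD88-/-. The groups overlapped by 1 pair of libraries, ft/ft replicate 2 and ft/ftMyD88-/- replicate 4. This was a log2 fold change of 0.47 (SE 0.128, 95% interval 0.19 to 0.74, edgeR adjusted p = 0.0209; exact permutation p = 0.0571). Its edgeR adjusted p was 0.0563, 0.0551 and 0.0592 without ft/ft replicates 1, 3 and 4 and 0.0626 without ft/ftMyD88-/- replicate 2.

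*Il6st* (chromosome 13, 112464070 to 112506860), the shared signalling subunit gp130, fell. It measured 296, 340, 358 and 365 CPM in ft/ft and 230, 291, 299 and 242 CPM in ft/ftMyD88-/-. ft/ft replicate 1 lay within the range of the other group, and ft/ftMyD88-/- replicates 1 and 4 were the lowest. The log2 fold change was -0.35 (SE 0.110, 95% interval -0.59 to -0.12, edgeR adjusted p = 0.0357; exact permutation p = 0.0571). The call was lost when counts were scaled by library size only, at -0.18 with an edgeR adjusted p = 0.285. It was also lost without ft/ft replicates 2, 3 and 4, at 0.0636, 0.0918 and 0.105 by edgeR, and without ft/ftMyD88-/- replicates 1 and 4, at 0.0943 and 0.0967.

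*Lifr* (chromosome 15, 7090610 to 7197489), the neighbour of *Osmr*, and *Il6ra* (chromosome 3, 89869324 to 89913196) did not pass the test. *Lifr* was at 27.9, 34.1, 34.7 and 39.1 CPM in ft/ft and at 29.3, 37.7, 41.9 and 28.3 CPM in ft/ftMyD88-/-. Its groups overlapped over most of their range, with a log2 fold change of 0.02 (95% interval -0.29 to 0.32, edgeR adjusted p = 0.944). *Il6ra*, the subunit that gives hepatocytes and leukocytes their response to IL-6, was at 45.2, 49.5, 42.2 and 60.8 CPM in ft/ft and at 38.3, 42.6, 57.1 and 36.2 CPM in ft/ftMyD88-/-. Its log2 fold change was -0.18 (95% interval -0.52 to 0.15, edgeR adjusted p = 0.427).

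Some markers of cell types known to carry these receptors also differed. Summed basal keratinocyte markers were at 13105 to 16083 CPM in ft/ft and 9285 to 11473 CPM in ft/ftMyD88-/- with 3 of 5 called lower. Differentiated keratinocyte markers were at 15834 to 20774 against 11436 to 14184 CPM, also with 3 of 5 called lower, each against 12.3% of all genes. *Krt15* fell most of the basal markers (log2 fold change -1.36), while *Krt14* and *Trp63* did not pass, at 0.05 and -0.18. Of the differentiated markers *Krt1* and *Ivl* did not pass, at -0.10 and 0.10. Fibroblast markers were at 8643 to 18617 against 4293 to 5861 CPM with 2 of 5 called lower, the collagen genes *Col1a1* and *Col1a2* (log2 fold changes -1.60 and -1.49), which made up most of the sum. *Dcn*, *Lum* and *Pdgfra* did not pass, at -0.40, 0.09 and 0.31. Endothelial markers were at 213 to 255 against 158 to 206 CPM with 2 of 5 called lower. The fibroblast and endothelial counts also stand against 12.3% of all genes called lower. Hair follicle markers were at 1221 to 1928 CPM in ft/ft and at 10525, 1605, 2478 and 6092 CPM in ft/ftMyD88-/-, so that the replicates with the most follicle transcripts, 1 and 4, had the least *Il6st*, *Il6ra* and *Lifr* of that group, which was noticed after values had been seen. No gene of these lists was at 0 in all libraries of a group. The part of these cell types in the receptor levels was not tested.

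**Figure D2:**
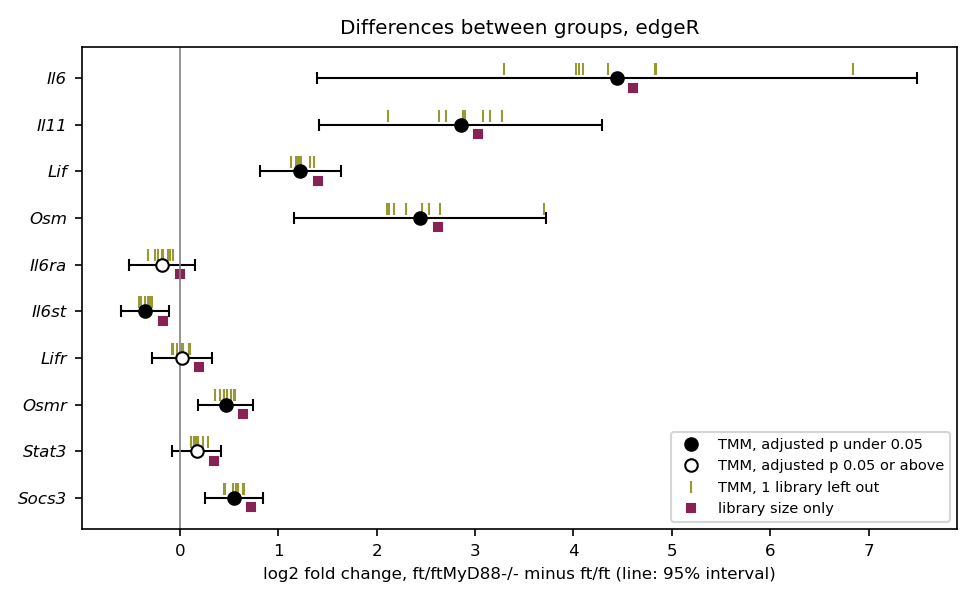
Log2 fold change (ft/ftMyD88-/- minus ft/ft) of each member with its 95% interval, filled where the edgeR adjusted p was under 0.05, with ticks for the fits without 1 library and squares for scaling by library size only. *Il6* spans 1.39 to 7.49, *Lif* 0.81 to 1.64 and *Socs3* 0.25 to 0.84, and the squares lie to the right of the points for every member.

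The plot of fold changes sets the precision of the members side by side, with the widest intervals for the 3 scarce ligands. It also shows the effect of scaling. With library size only in place of TMM the median of all genes moved up by 0.18 on the log2 scale, and the split of all calls went from 2239 higher and 2525 lower to 4638 higher and 1326 lower. *Stat3* was then called, at 0.35 with an edgeR adjusted p = 0.0391, and *Il6st* was not.

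Because scaling acts on both genes of a library alike, ratios of receptor counts within a library do not depend on it. These ratios were chosen after values had been seen, and 5 were computed, so their exact p-values are unadjusted. The *Osmr* to *Il6st* ratio was 0.0901, 0.106, 0.0824 and 0.0806 in ft/ft and 0.182, 0.178, 0.129 and 0.146 in ft/ftMyD88-/-. The 4 ft/ftMyD88-/- libraries all lay above the ft/ft libraries. The means were 0.0897 ± 0.0115 and 0.159 ± 0.0252 (SD, n = 4), a log2 difference of 0.82 (exact permutation p = 0.0286), which lay between 0.75 and 0.91 with 1 library left out.

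The *Lifr* to *Il6st* ratio also separated the groups, at 0.0997 ± 0.00544 in ft/ft and 0.128 ± 0.00954 in ft/ftMyD88-/- (SD, n = 4; log2 difference 0.36, exact permutation p = 0.0286). The *Osmr* to *Lifr* ratio was 0.903 ± 0.130 against 1.25 ± 0.226 (exact permutation p = 0.0857), with ft/ftMyD88-/- replicate 3 at 0.925 inside the ft/ft range. The *Il6ra* to *Il6st* ratio was 0.146 ± 0.0205 against 0.163 ± 0.0203 and overlapped (exact permutation p = 0.343). Counts of OSMR and LIFR transcripts per gp130 transcript were thus higher in the ft/ftMyD88-/- libraries, with gp130 still the most abundant of the receptor subunits. For *Lifr* this went with the lower *Il6st* (log2 fold change -0.35), since *Lifr* itself was at 0.02.

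**Figure D3:**
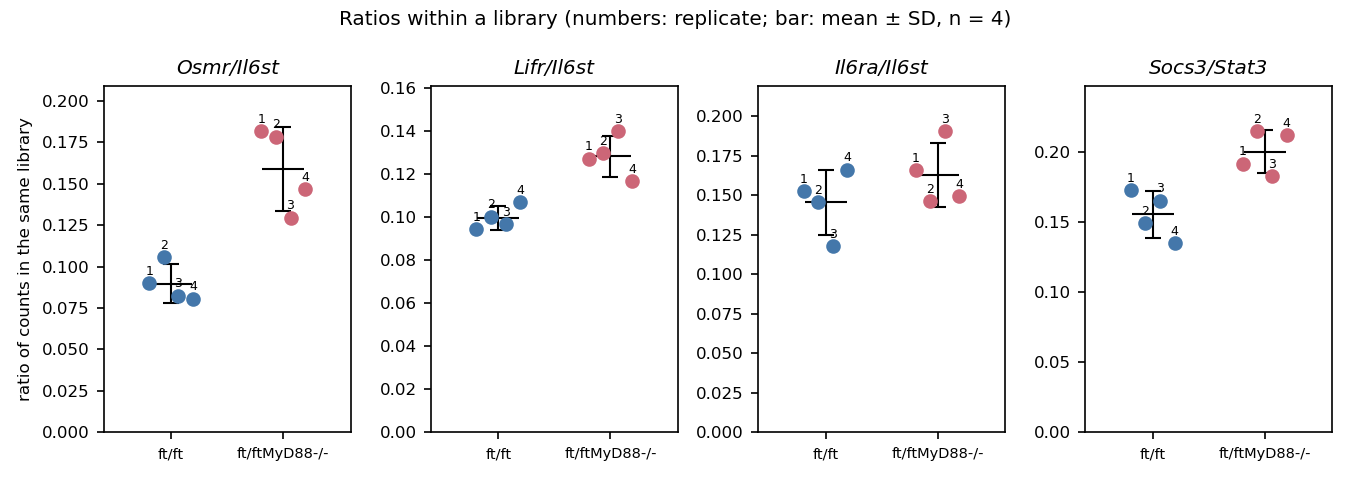
Ratios of counts of pairs of members within each library, with replicate numbers beside the points and the mean ± SD of 4 libraries as a bar, on axes that start at 0. *Osmr* per *Il6st* is at 0.0806 to 0.106 in ft/ft and 0.129 to 0.182 in ft/ftMyD88-/-, and *Socs3* per *Stat3* at 0.135 to 0.173 and 0.183 to 0.215.

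Of the signalling genes, *Socs3* (chromosome 11, 117966079 to 117970336), whose promoter entry inside this span carried the STAT motif, rose. SOCS3 binds gp130 and JAK kinases and limits their signal. It was at 27.2, 32.9, 28.8 and 22.6 CPM in ft/ft and at 38.1, 49.0, 33.6 and 42.5 CPM in ft/ftMyD88-/-. The lowest ft/ftMyD88-/- library, replicate 3, was just above the highest ft/ft library, replicate 2. The log2 fold change was 0.55 (SE 0.136, 95% interval 0.25 to 0.84, edgeR adjusted p = 0.0123; exact permutation p = 0.0286), and it was called in all 15 alternatives.

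*Stat3* itself (chromosome 11, 100886806 to 100939594), the transcription factor of the pathway, did not pass. It was at 157, 221, 174 and 167 CPM in ft/ft and at 199, 228, 184 and 200 CPM in ft/ftMyD88-/-. The groups overlapped through ft/ft replicate 2. Its log2 fold change was 0.17 (SE 0.114, 95% interval -0.08 to 0.42, edgeR adjusted p = 0.301). The *Socs3* to *Stat3* ratio was 0.156 ± 0.0169 in ft/ft and 0.200 ± 0.0156 in ft/ftMyD88-/- (SD, n = 4; log2 difference 0.37, exact permutation p = 0.0286), without overlap. Phosphorylation of STAT3 is not visible in transcript counts.

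Genes whose profile over the 8 libraries was most like that of *Socs3* and *Osmr* were named by the root mean square difference of log2 CPM, each gene centred on its mean, among 13507 genes with a mean of at least 50 counts. For *Socs3* they were *Cd44*, the hyaluronan receptor, at 0.0882, *Myd88* at 0.0976 and *Ercc6l*, a DNA helicase of mitosis, at 0.109. *Osmr* was nearest to *Arrdc2* at 0.0626, *Trim8* at 0.0844 and *Lipg*, endothelial lipase, at 0.0860.

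The other ligands and receptors of the family gave a mixed picture. Of 11 genes listed 10 were in the table and tested, and 4 were called, against 23.3% of all genes, with a median log2 fold change of 0.24 and 4 of the 10 without overlap between the groups, against 26.7% of all genes. *Cntfr*, the receptor subunit for ciliary neurotrophic factor, rose from 12.9 ± 3.76 to 27.5 ± 7.50 CPM (SD, n = 4; log2 fold change 1.10, edgeR adjusted p = 0.00772). *Il27ra*, which pairs with gp130 to bind IL-27 and is found on lymphocytes, rose from 2.05 ± 0.341 to 4.07 ± 0.407 CPM (1.00, edgeR adjusted p = 0.00235). Both separated the groups.

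*Clcf1*, a ligand of the CNTF receptor, rose from 2.42 ± 0.395 to 4.20 ± 1.36 CPM (SD, n = 4; log2 fold change 0.80, edgeR adjusted p = 0.0275), with replicate 2 the highest at 6.10 CPM. Its call was lost without ft/ft replicates 2, 3 and 4 (edgeR adjusted p = 0.0624, 0.0590 and 0.0820) and without ft/ftMyD88-/- replicates 2 and 4 (0.0820 and 0.0602), and the log2 fold change without replicate 2 was 0.56. *Ctf1*, cardiotrophin 1, fell from 8.96 ± 0.352 to 6.91 ± 0.560 CPM (-0.37, edgeR adjusted p = 0.0386). This call was lost with library size only (-0.19, edgeR adjusted p = 0.243), under 7 of the 8 omissions of a library and with the replicate number as a block (adjusted p = 0.0814). *Il27* had at most 3 counts in any library, and no fold is given for it or for *Ctf2*.

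Of 15 JAK kinases, other STATs, suppressors, phosphatases and sheddases, 5 were called, against 23.3% of all genes, with a median log2 fold change of -0.04, and 9 had no overlap between the groups, against 26.7% of all genes. The suppressors moved in different directions. *Socs1* rose from 5.02 ± 0.903 to 8.63 ± 0.987 CPM (SD, n = 4; log2 fold change 0.79, edgeR adjusted p = 0.00396) and *Socs2* from 11.5 ± 0.396 to 19.8 ± 3.81 CPM (0.78, edgeR adjusted p = 0.00163). *Cish*, a suppressor of STAT5 signalling, fell from 11.7 ± 0.998 to 7.78 ± 0.871 CPM (-0.59, edgeR adjusted p = 0.00600). These 3 calls held in all 15 alternatives.

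*Pias3*, an inhibitor of STAT3 binding to DNA, fell from 31.7 ± 1.30 to 24.2 ± 1.95 CPM (SD, n = 4; log2 fold change -0.38, edgeR adjusted p = 0.00988), a call lost with library size only (-0.21, adjusted p = 0.124). *Jak1*, the main kinase of gp130, fell from 193 ± 14.1 to 154 ± 13.9 CPM (-0.32, edgeR adjusted p = 0.0261). Its call was lost with library size only (-0.14, adjusted p = 0.302), without ft/ft replicates 2, 3 and 4 and without ft/ftMyD88-/- replicates 1 and 4 (edgeR adjusted p = 0.0654, 0.0572, 0.0701, 0.0696 and 0.0738). *Stat5a* and *Stat5b*, *Jak2* and *Tyk2*, the 4 phosphatases *Ptpn1*, *Ptpn2*, *Ptpn6* and *Ptpn11*, and the sheddases *Adam10* and *Adam17*, which release IL-6Rα from cells, did not pass.

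**Figure D4:**
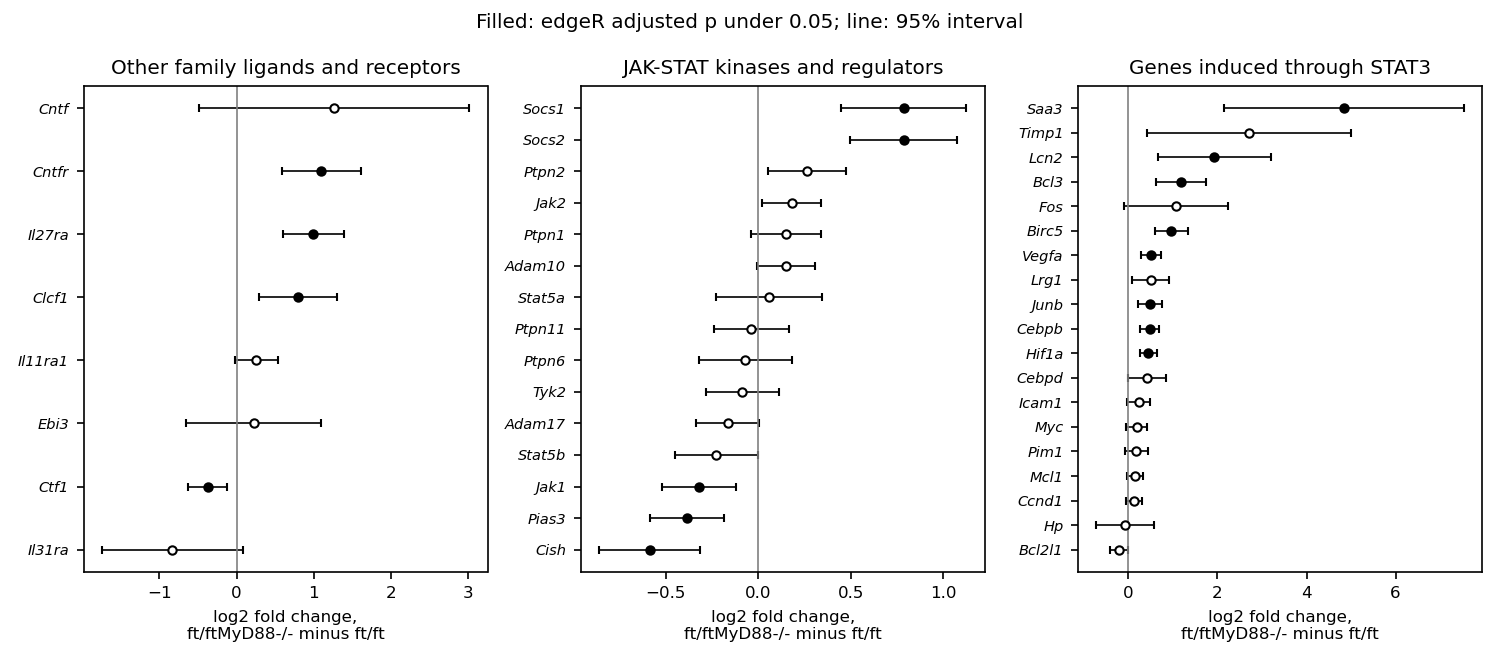
Log2 fold change (ft/ftMyD88-/- minus ft/ft) with its 95% interval for the other ligands and receptors of the family, the kinases and regulators, and the genes induced through STAT3, filled where the edgeR adjusted p was under 0.05. Of the genes induced through STAT3, 17 of 19 lie above 0, with a median of 0.48, against a median of -0.04 over the regulators.

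Of 19 genes known to be induced through STAT3, 8 were called, all higher, against 10.9% of all genes called higher, and 9 had every ft/ftMyD88-/- library above every ft/ft library, against 12.5%. Many of these genes also respond to NF-kB, AP-1 or hypoxia. The largest was *Saa3*, an acute phase protein of skin and macrophages, at 0.514, 1.82, 0.892 and 0.230 CPM in ft/ft and 4.73, 65.4, 10.2 and 19.9 CPM in ft/ftMyD88-/- (log2 fold change 4.83, SE 1.11, edgeR adjusted p = 0.0251). The groups did not overlap, and replicate 2 set the height of the difference, which was 3.71 without it and 5.59 without ft/ft replicate 2. The call was lost without ft/ft replicates 1, 3 and 4 (edgeR adjusted p = 0.0682, 0.0696 and 0.0713) and without ft/ftMyD88-/- replicate 4 (0.0523).

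*Lcn2*, the iron-binding lipocalin of epithelia and neutrophils, was at 13.4, 34.8, 16.9 and 8.63 CPM in ft/ft and at 93.9, 91.3, 35.2 and 61.4 CPM in ft/ftMyD88-/- (log2 fold change 1.93, edgeR adjusted p = 0.0431). ft/ft replicate 2 nearly reached ft/ftMyD88-/- replicate 3, and the call was lost without any library but ft/ft replicate 2 and ft/ftMyD88-/- replicate 3 (edgeR adjusted p up to 0.103) and with the replicate number as a block (0.0517). *Bcl3*, a nuclear regulator of NF-kB, was at 7.42, 13.7, 6.81 and 5.75 CPM against 19.4, 22.0, 15.3 and 20.5 CPM (1.19, edgeR adjusted p = 0.00772). Its groups did not overlap, and it was called in all 15 alternatives.

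*Birc5*, the survivin gene of dividing cells, rose from 8.57 ± 1.13 to 16.8 ± 4.43 CPM (SD, n = 4; log2 fold change 0.97, edgeR adjusted p = 0.00219). Smaller increases were measured for *Vegfa*, the vascular growth factor (0.51, edgeR adjusted p = 0.00399), and for the transcription factors *Junb* (0.49, edgeR adjusted p = 0.0134), *Cebpb* (0.48, edgeR adjusted p = 0.00447) and *Hif1a* (0.45, edgeR adjusted p = 0.00339). All 8 called genes had the groups apart, and so did *Mcl1*, a survival gene of the BCL2 family that did not pass (0.15, edgeR adjusted p = 0.180). *Timp1*, the metalloproteinase inhibitor, was at 2.14 to 3.53 CPM in ft/ft and at 3.16, 50.6, 5.55 and 13.7 CPM in ft/ftMyD88-/- and did not pass (2.71, edgeR adjusted p = 0.0898). Of the other genes of this list *Hp* and *Bcl2l1* had a log2 fold change below 0, at -0.07 and -0.21. *Bcl2l1*, which encodes the survival protein BCL-XL, was at 90.1 to 98.1 CPM in ft/ft and at 69.1 to 88.3 CPM in ft/ftMyD88-/-, without overlap, and did not pass (edgeR adjusted p = 0.127).

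**Figure D5:**
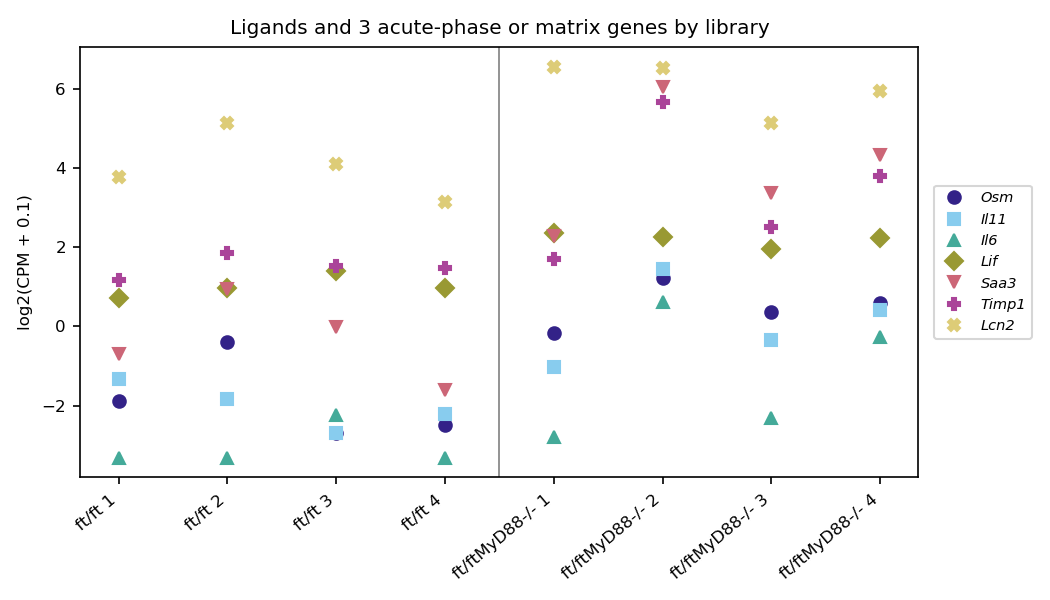
Abundance of the 4 ligands and of *Saa3*, *Timp1* and *Lcn2* in each library, as log2(CPM + 0.1), with ft/ft libraries to the left of the line and ft/ftMyD88-/- libraries to the right. ft/ftMyD88-/- replicate 2 holds the highest value of *Osm*, *Il11*, *Il6*, *Saa3* and *Timp1*, and *Lif* lies almost level within each group.

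The libraries labelled ft/ftMyD88-/- were not alike. Replicate 2 had the highest value of 6 of the 10 members and of 9 of the 19 genes induced through STAT3 (47.4%), against 9.75% of all genes tested and 20.3% of all genes called higher. This count was chosen after values had been seen. In *Il6*, *Il11* and *Osm*, in *Osmr*, *Stat3* and *Socs3*, and in *Saa3* and *Timp1*, it was the highest of all 8 libraries. The highest *Lif* was in replicate 1 and the highest *Lifr* in replicate 3, and in *Il6ra* and *Il6st* ft/ft replicate 4 was the highest. The neutrophil sum of replicate 2, 915 CPM, was not the highest of its group, which was the 1082 CPM of replicate 4. *S100a8* and *S100a9* made up most of both sums, and *Csf3r*, *Cxcr2* and *Mmp8* were highest in replicate 2.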

How the data were processed

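The authors extracted RNA from periocular skin biopsies, sequenced it as single-end 50-cycle reads and used HISAT and TopHat2 (GRCm38.p6) for alignment and HTSeq for counting. The deposited values are raw counts per gene. Aligner versions, annotation release and strand setting are not given in the sources used here. The study's methods describe polyA selection, whereas GEO's labels for the 8 libraries list total RNA, fixed tissue, Cell Ranger and GRCm38, and no source settles which applied.

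Libraries were grouped by their labels, 4 per group, and all 8 columns were used. The 4 WT samples were not analysed here. The two-sided quasi-likelihood test of edgeR 4.0.16 in R 4.3.3 (robust glmQLFit, then glmQLFTest) was applied to the 20454 of 21247 genes whose counts summed to 10 or more, after TMM normalization, without covariates and with Benjamini-Hochberg adjustment at 0.05. CPM are TMM-scaled. RPKM are CPM per kilobase of the union of GENCODE M21 exons. Exact permutation tests used all 70 splits of log2(CPM + 0.1), or of log2 ratios of counts. Totals of 15802957 to 29255129 counts put the floor, 3 counts, at 0.102 to 0.183 CPM. Floors cover counting error only, and the sources do not settle whether reads carried molecular identifiers. Nor do they settle whether reads came from along the whole transcript, which RPKM assume. Replicates differed by more than counting noise (chi-square per degree of freedom at least 16.25). P-values measure the spread between these samples, which the study gives as separate mice.

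The members and all gene lists were chosen with earlier results of these data known. Genes named are the members, the called genes of the lists of other family ligands and receptors, regulators and genes induced through STAT3, the label checks, and the 3 nearest profiles of *Socs3* and *Osmr*. Some genes of the family and of the regulators are not reported here and were left out of the lists. Other genes of those lists, and the single cell type markers, were named after values were seen. The alternatives were RLE normalization, library size only, DESeq2 1.42.0, limma 3.58.1 voom, filterByExpr, no filter, the replicate number as a block and each of the 8 libraries left out in turn. Leaving libraries out of the ratios was added after seeing the data. The edgeR fit was tested on simulated data for this comparison, in which 161 of 196 tested genes changed by a log2 fold change of 2 were recovered among 20138 genes tested, with 13 false calls. Smaller changes, such as those of *Il6st*, *Osmr* and *Socs3*, were not simulated.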

Additional observations from a re-analysis of the deposited data

Results flagged for a closer look

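In 108 groups of 4 libraries, over the members and the lists of relatives, regulators and genes induced through STAT3, 4 held a library far from the other 3 by Dixon's test, which chance gives in about 1 of 20 groups. *Il6* had 0.112 CPM in ft/ft replicate 3 against 0 in the other ft/ft libraries, a difference of 2 counts. *Ptpn11*, a phosphatase bound by gp130, had 202 CPM in ft/ft replicate 3 against 217 to 219 CPM in the others. *Socs1* had 6.36 CPM in ft/ft replicate 3 against 4.44 to 4.76 CPM in the others, still below every ft/ftMyD88-/- library. *Hp*, haptoglobin, was at 238 CPM in ft/ftMyD88-/- replicate 2 and at 127 to 137 CPM in the others.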

How the results depend on the processing

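Of 149 refits of the 10 members, 128 kept direction and side of the threshold, 17 lost the call, 1 gained it and 3 reversed, all of *Lifr*, which was at -0.07 without ft/ft replicate 1 and at -0.03 and -0.080 without ft/ftMyD88-/- replicates 2 and 3, within a range of -0.080 to 0.10 over the omitted libraries. Of 255 refits of 17 other called genes, 223 kept both and 32 lost the call. *Il6* was not tested under filterByExpr. With 1 library left out, 4 to 7 members were called (4 when either ft/ft replicate 3 or 4 was omitted, against 7), of which 0 to 1 lower, 2 to 3 relatives (2 without ft/ft replicate 2 or 4 or ft/ftMyD88-/- replicate 4), of which 0 to 1 lower, and 1462 to 2260 of all genes higher (1462 without ft/ft replicate 4). Library size only gave 4638 higher and 1326 lower of all genes, 0 members and 0 relatives lower, 6 regulators higher and 1 lower, and 15 genes induced through STAT3 called, all 15 higher, in place of 8. DESeq2 called 8 regulators, 5 of them higher. Fewer samples are fitted when a library is left out, and for the other changes the cause was not tested. Same-numbered libraries did not deviate together (correlations -0.146, 0.0251, 0.0146 and -0.0169, and 1 of 4 ft/ft libraries correlated best with its own number). The numbers thus showed no pairing, though 4 libraries per group cannot exclude one. With the replicate number as a block 4039 genes and 7 members were called, and *Ctf1* and *Lcn2* were not, with no change in the call of the members or of the other refitted genes. Depth limits *Il6*, *Il11* and *Osm*, for which ft/ft libraries held few or no counts.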

Other observations

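Marker lists of other cell types not given beside the members also differed between the groups. Of all genes, edgeR called 10.9% higher and 12.3% lower, the shares against which the counts below stand. Summed skeletal muscle markers were at 7324 to 9763 CPM in ft/ft and 2805 to 5196 CPM in ft/ftMyD88-/-, with 6 of 6 called lower by edgeR. Sebocyte markers were at 3851 to 4614 against 2586 to 3620 CPM with 5 of 7 called lower. Markers of IL-17-producing gamma delta T cells were at 52.5 to 62.9 against 67.2 to 82.7 CPM, with 4 of 6 called higher and 1 lower. Hyperproliferative keratinocyte markers were at 2794 to 3605 against 3283 to 5627 CPM with 1 of 5 called higher, against 10.9% of all genes. *Krt17* made up most of the sum. *Sprr1b* was called (log2 fold change 3.19, edgeR adjusted p = 0.0174). *Krt16* also separated the groups but did not pass (2.58, edgeR adjusted p = 0.0530). *Krt6a*, *Krt6b* and *Krt17* overlapped and did not pass. Of the hair follicle markers 2 of 7 were called higher. Mast cell markers overlapped, at 109 to 138 against 103 to 170 CPM, with a median log2 fold change of 0.19 over 5 genes.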
